A study of Mus musculus with 8 samples.

Results

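The members of the interleukin-1 (IL-1) family examined here were 10 genes, taken by symbol from the 24346 genes of each library: the cytokines Il1a, Il1b, Il18 and Il33, the receptor antagonist Il1rn, and the receptors Il1r1, Il1rl1, Il18r1, Il1r2 and Il1rap. They were measured by RNA sequencing of adipose-derived stem cells (ADSCs), which were isolated with collagenase from the gonadal adipose tissue of 12-week-old male wild-type BALB/c mice. Cultures of the 2D group were conventional (mice 2, 3, 4 and 5, 4 libraries). Those of the 3D group grew in Matrigel, a basement membrane gel, as organoids (mice 1, 4, 5 and 7, 4 libraries). The composition of the 2D and 3D media used for the sequenced libraries, and their passage, are not given in the sources used here, so gel, medium and passage cannot be told apart as parts of the culture difference. The paper tried 3D media with and without Wnt3a- and R-Spondin1-conditioned medium, and which of these the sequenced cultures had is not given. Each library is 1 mouse and culture, and only mice 4 and 5 are in both groups. The sample titles name no treatment.

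Cytokines of the IL-1 family are alarm signals of injured or infected tissue. IL-1 alpha and IL-1 beta bind IL-1R1, IL-33 binds ST2, the product of Il1rl1, and IL-18 binds the product of Il18r1. Each of these receptors signals with an accessory chain, Il1rap for IL-1 and IL-33 and Il18rap for IL-18, through the adaptor MyD88, IRAK kinases and TRAF6 to NF-kappaB and MAP kinases. In adipose tissue, IL-33 made by stromal cells is known to sustain regulatory T cells and innate lymphoid cells.

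The values are fragment counts scaled to transcript length and library depth (FPKM), quantile normalized over 18862 genes, and are listed in the order of the mice named. The depth, estimated from the steps between low values, was between 14.5 M and 17.4 M fragments per library. As the floor of a gene served the FPKM of 3 fragments at the median length of its protein-coding transcripts, and covers counting error only. Cultures were compared with limma on log2(normalized FPKM + 1), a scale that understates the change of low genes, and a gene was called at a Benjamini-Hochberg adjusted p below 0.05 over the 18862 genes.

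The labelled cell type, mesenchymal stem cells, was checked against its markers. Thy1 ranged from 66.5 to 279 normalized FPKM in 2D and from 0 to 0.0554 in 3D, while Cd44 was between 82.9 and 137 in 2D and between 62.9 and 115 in 3D. The sum of 6 stromal markers was between 1420 and 3100 in 2D and between 0.0465 and 0.131 in 3D, where all 6 lay under 1 FPKM. The sum of 7 epithelial markers was between 31.2 and 694 in 2D and between 2140 and 2500 in 3D. The sum of the 5 mesenchymal stem cell markers ranged from 241 to 513 in 2D and from 152 to 3180 in 3D, where most of it outside mouse 1 was Ly6a, which was called higher (24.0, 66.1, 165 and 52.0 in 2D, log2 fold change 3.86, limma adjusted p = 0.0432). Eng ranged from 1.9 to 49.1 in 2D and was at most 0.189 in 3D (limma adjusted p = 0.00719). Nt5e ranged from 0.79 to 60.6 in 2D and was at most 0.35 in 3D, without overlap, but was not called (limma adjusted p = 0.068). Thy1, Eng, Nt5e and the stromal markers were thus near 0 in the 3D libraries while Cd44 and Ly6a were not. These libraries are called 3D cultures by their label only. The 2D libraries of mice 3 and 4 stood apart, with 816 and 2000 normalized FPKM over 5 mesothelial markers (Msln, Upk3b, Upk1b, Wt1 and Lrrn4) against 1.99 in mouse 2, 0.525 in mouse 5 and between 1.57 and 33.7 in 3D. The 3D library of mouse 1 stood apart in Ly6a, with 58.6 normalized FPKM against between 1430 and 3120 in the other 3D libraries. In bulk RNA, fewer cells of a type and less RNA per cell cannot be told apart.

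All 10 members were above 0 in some library and were tested, and 6 had a mean of at least 1 FPKM. Il1rl1 and Il18 were lower in 3D and Il18r1 was higher, which makes 3 of 10 called, beside 41.5% of all genes tested. In the direction higher in 3D this was 1 of 10 beside 21.2% of all genes, and in the direction lower in 3D it was 2 of 10 beside 20.3%. The 4 libraries of a culture all lay above the 4 of the other for 3 of 10 members (Il1a, Il18 and Il1rl1), beside 42.5% of all genes. The median log2 fold change of the 10 members was 0.16, or 0.40 over the 8 members above the floor in some library, against 0.00 over all genes. Each of these shares was near or below that of all genes, and the changes differed from member to member.

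**Figure D1:**
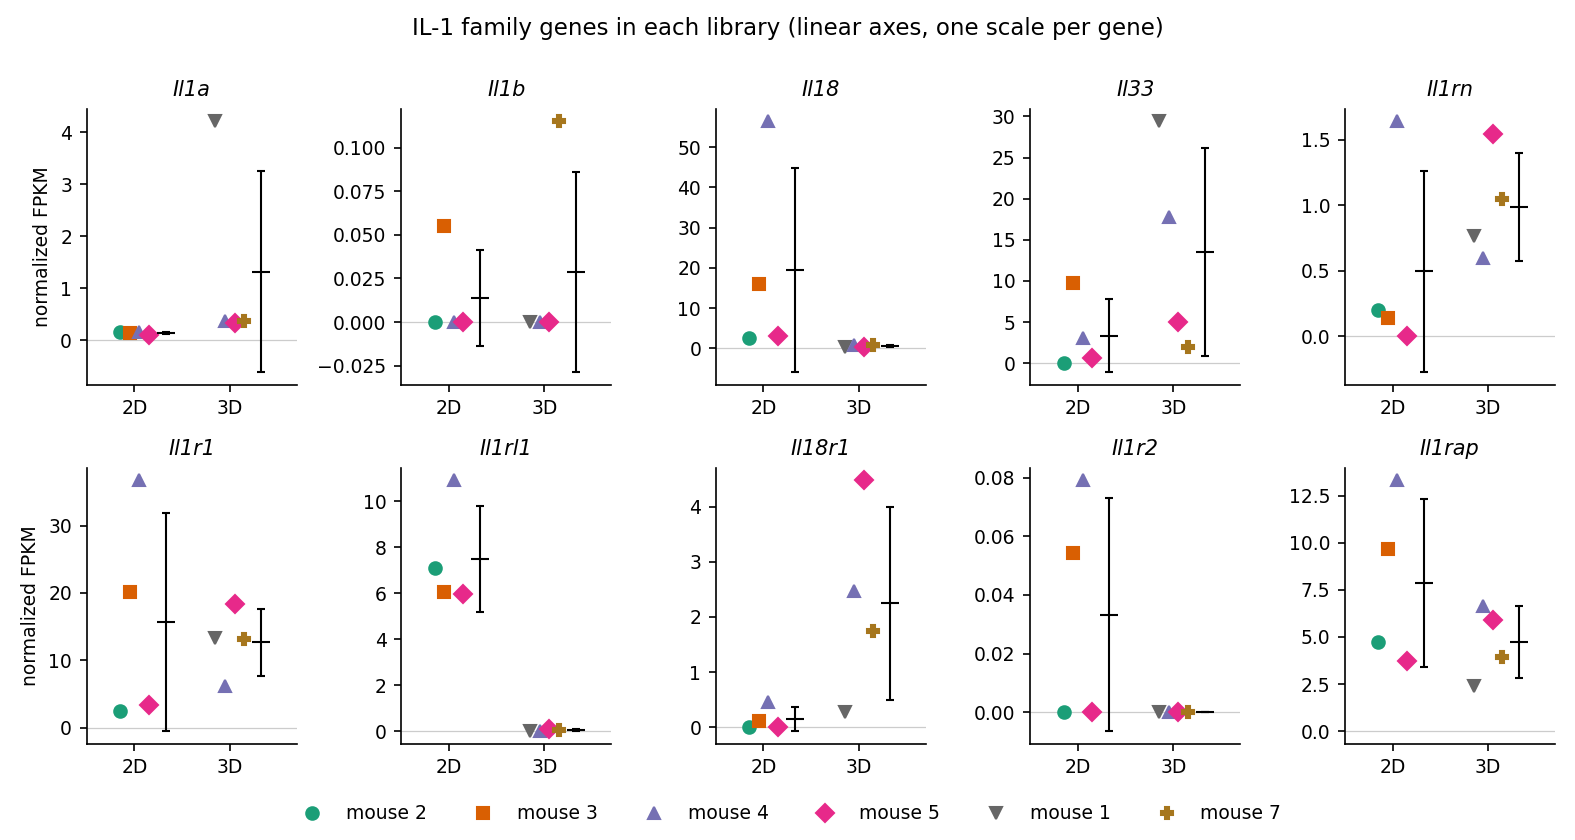
Normalized FPKM of the 10 members (vertical axes, linear, with a separate scale for each gene) in each 2D and 3D library, with a symbol per mouse and with the mean and SD of the 4 libraries beside the points. Il1rl1 lay between 5.95 and 10.9 in 2D and at or under 0.107 in 3D, Il18 was highest in the 2D libraries of mice 4 and 3, and Il1a was at 4.21 in the 3D library of mouse 1.

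Among the agonists, Il18 (chromosome 9, 50554827 to 50581840, plus strand) was lower in 3D. IL-18 is made as a precursor that caspase-1 cleaves. Il18 was at 2.47, 16.1, 56.4 and 3.05 normalized FPKM in 2D (mice 2, 3, 4, 5), and at 0.264, 0.815, 0.368 and 0.842 in 3D (mice 1, 4, 5, 7). The groups did not overlap, but the 2D libraries spanned a wide range, and the high values were those of mice 3 and 4. On the log2 scale the change was -2.80 (SE, the standard error, 0.86, limma adjusted p = 0.0327). The call was lost without the 2D library of mouse 3 or without any 3D library, with adjusted p between 0.0668 and 0.0822. It was also lost on the deposited values (limma adjusted p = 0.053) and in mice 4 and 5 alone (limma adjusted p = 0.268). Over 18 alternatives the adjusted p ranged from 0.00662 to 0.308, and with the mouse as a block it was 0.263.

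Il33 (chromosome 19, 29925114 to 29960718, plus strand) encodes the ST2 ligand, a nuclear cytokine released from damaged cells. It was at 0.0408, 9.69, 3.07 and 0.595 normalized FPKM in 2D (mice 2, 3, 4, 5), and at 29.4, 17.8, 4.97 and 1.97 in 3D (mice 1, 4, 5, 7). The groups overlapped, since the 2D library of mouse 3 lay above the 3D libraries of mice 5 and 7. The log2 fold change of 1.78 (SE 0.95, limma adjusted p = 0.176) did not pass the test, with a 95% interval from -0.43 to 3.99. Within mice 4 and 5 the 3D library was the higher, by 2.21 and 1.90 on the log2 scale.

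Il1a (chromosome 2, 129299610 to 129309972, minus strand) encodes IL-1 alpha, which is active as a precursor and acts when cells are damaged. It was at 0.153, 0.142, 0.166 and 0.104 normalized FPKM in 2D (mice 2, 3, 4, 5), which is between about 2.1 and 6.4 fragments. In 3D (mice 1, 4, 5, 7) it was at 4.21, 0.365, 0.336 and 0.380. All 3D libraries lay above all 2D libraries, and that of mouse 1 lay far above the others. The change on the log2 scale was 0.74 (SE 0.43, limma adjusted p = 0.211). Without the 3D library of mouse 1 it was smaller, at 0.25, and was called (limma adjusted p = 0.000979, against up to 0.402 over 17 alternatives).

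Il1b (chromosome 2, 129364570 to 129371139, minus strand), the secreted IL-1 of activated myeloid cells, was listed at 0 in 6 of 8 libraries. It was at 0.0549 normalized FPKM in mouse 3 of the 2D group and at 0.115 in mouse 7 of the 3D group, or about 1.2 and 2.3 fragments. Il1b was at or under its floor in all 8 libraries, so that no fold is given, and the depth could not show a difference. The 3D libraries that held Il1a were thus at or under the floor for Il1b.

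The antagonist Il1rn (chromosome 2, 24336853 to 24351494, plus strand) occupies IL-1R1 without a signal. It was at 0.204, 0.141, 1.64 and 0 normalized FPKM in 2D (mice 2, 3, 4, 5), and at 0.766, 0.597, 1.54 and 1.05 in 3D (mice 1, 4, 5, 7). The 2D library of mouse 4 lay above all 3D libraries after normalization, though not in the deposited values (1.59 against 1.77 in the 3D library of mouse 5). The 2D libraries of mice 2, 3 and 5 lay below all 3D libraries and at or under the floor, at about 2.9, 2.9 and 0 fragments. The change on the log2 scale was 0.50 (SE 0.31, limma adjusted p = 0.238). Without the 2D library of mouse 4 it was 0.82 and was called, with limma adjusted p = 0.0102 (0.0102 to 0.815 over 17 alternatives). All 2D values left in that fit were at or under the floor.

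Among the receptors, Il1rl1 (chromosome 1, 40429570 to 40465415, plus strand) had the largest absolute log2 fold change of the members in the fit over 8 libraries, though not in every alternative. That of Il18 was larger with the mouse as a block, also with mice 4 and 5 exchanged in 3D, and in mice 4 and 5 alone (-3.27 against -3.10 in each). It was also larger without the 2D library of mouse 2 (-3.35 against -2.99) or mouse 5 (-3.28 against -3.07). That of Il33 was larger without the 2D libraries of mice 3 and 4 (2.96 against -2.84). The Il1rl1 product ST2 occurs as a membrane receptor for IL-33 and as a soluble form that binds IL-33 without a signal, and a value per gene does not tell these apart. Il1rl1 was at 7.11, 6.05, 10.9 and 5.95 normalized FPKM in 2D (mice 2, 3, 4, 5), or between about 233.2 and 490.5 fragments. In 3D (mice 1, 4, 5, 7) it was at 0.00917, 0.0186, 0.107 and 0.0628, and 3 of these 4 lay at or under the floor. The change on the log2 scale was -2.98 (SE 0.19, limma adjusted p = 2.1e-05). Leaving out any library kept the call, with values between -3.07 and -2.81. In mice 4 and 5 alone, in a fit that ignored the pairing by mouse, Il1rl1 was called (limma adjusted p = 0.0338). With the mouse as a block, which rests on the same mice, it was not called (limma adjusted p = 0.119), nor was any gene of the 18862. The 2D libraries of mice 3 and 4, which held mesothelial transcripts, held 6.05 and 10.9 for Il1rl1, against 7.11 and 5.95 in the other 2D libraries, and without them the log2 fold change was -2.84.

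Il18r1 (chromosome 1, 40465552 to 40500854, plus strand), the ligand-binding chain of the IL-18 receptor, changed in the opposite direction. It was at 0, 0.111, 0.454 and 0 normalized FPKM in 2D (mice 2, 3, 4, 5), and at 0.281, 2.47, 4.48 and 1.75 in 3D (mice 1, 4, 5, 7). The 3D library of mouse 1 lay below the 2D library of mouse 4, and the other 3D libraries above all 2D libraries. On the log2 scale this gave 1.34 (SE 0.41, limma adjusted p = 0.0314). The call was lost without the 2D library of mouse 2, 3 or 5 or the 3D library of mouse 4, 5 or 7, with adjusted p between 0.0608 and 0.0809. Over 18 alternatives it ranged from 0.00277 to 0.174, the highest with the mouse as a block.

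Il1r1 (chromosome 1, 40225080 to 40317257, plus strand) encodes the signalling receptor of IL-1. It was at 2.50, 20.2, 36.7 and 3.41 normalized FPKM in 2D (mice 2, 3, 4, 5), and at 13.3, 6.26, 18.4 and 13.1 in 3D (mice 1, 4, 5, 7). The 3D libraries lay between the low 2D libraries of mice 2 and 5 and the high ones of mice 3 and 4. On the log2 scale this gave 0.30 (SE 0.79, limma adjusted p = 0.778), and it changed sign in 5 of 18 alternatives, among them without the 2D library of mouse 2 (-0.23) or mouse 5 (-0.12). The 95% interval, from -1.54 to 2.14, holds large changes in either direction.

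Il1rap (chromosome 16, 26581704 to 26730117, plus strand), the accessory chain shared by the IL-1 and IL-33 receptors, was at 4.73, 9.65, 13.3 and 3.74 normalized FPKM in 2D (mice 2, 3, 4, 5). In 3D (mice 1, 4, 5, 7) it was at 2.41, 6.64, 5.92 and 3.94. The groups overlapped, and the log2 fold change of -0.55 (SE 0.42, limma adjusted p = 0.329) did not pass the test. Il1r2 (chromosome 1, 40074079 to 40125231, plus strand), the decoy receptor, was at 0.0542 and 0.0791 normalized FPKM in mice 3 and 4 of the 2D group and was listed at 0 in the other 6 libraries. It was at or under the floor in all 8, and again the depth could not show a difference.

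**Figure D2:**
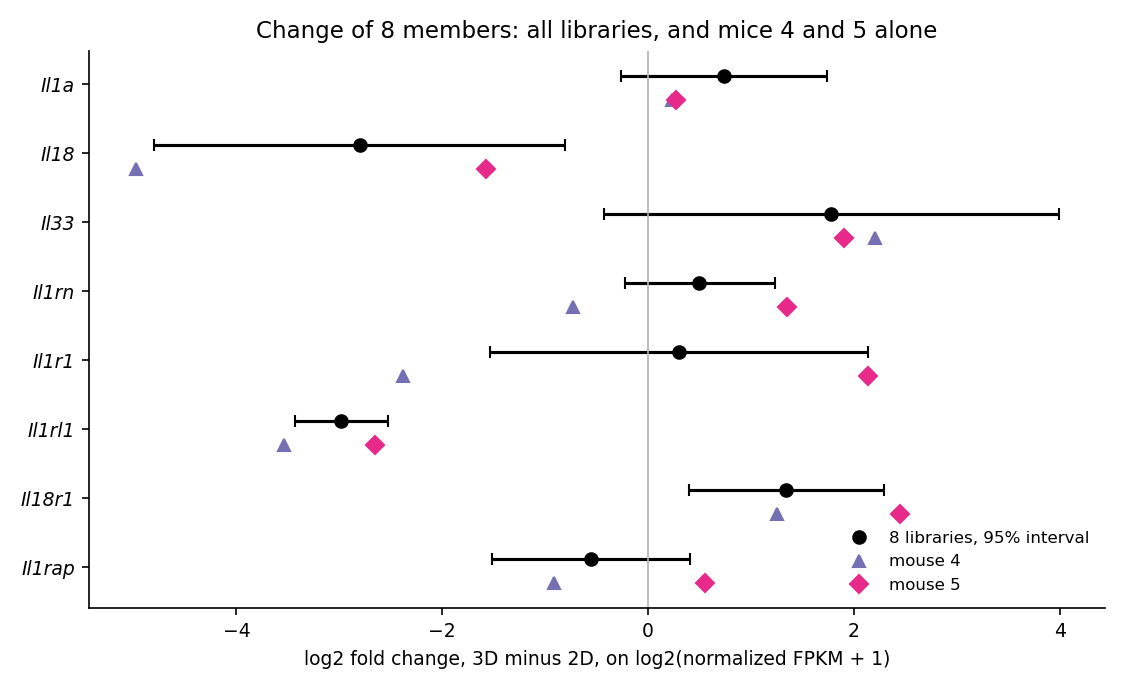
Log2 fold change, 3D minus 2D, of the 8 members above the floor in some library (horizontal axis), over the 8 libraries with the 95% interval (black) and within mouse 4 and mouse 5 alone (coloured symbols). The intervals of Il18, Il1rl1 and Il18r1 leave out 0, and the points of mouse 4 and mouse 5 lie on opposite sides of 0 for Il1rn, Il1r1 and Il1rap.

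In mice 4 and 5, which gave a library of each culture, the block fit gave 4 of 10 members an unadjusted p below 0.05 (Il1a, Il33, Il1rl1 and Il18r1), beside 27.7% of all genes, and none an adjusted p below 0.05. Il1rl1 was lower in 3D in both mice, by -3.54 in mouse 4 and -2.65 in mouse 5 on the log2 scale. Il18 was lower in both, by -4.98 and -1.57, and Il18r1 was higher in both, by 1.25 and 2.45. The direction of these members was thus shared by both mice, while that of Il1rn, Il1r1 and Il1rap was not.

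In all, 4 members are receptor genes of a cluster on chromosome 1 of the mouse (GRCm38, 40074079 to 40551705), with 6 genes in the order Il1r2, Il1r1, Il1rl2, Il1rl1, Il18r1 and Il18rap, all on the plus strand. Il1rl2 encodes the receptor of the IL-36 cytokines and Il18rap the accessory chain of the IL-18 receptor. Il1rl2 was at 6.37, 4.14, 7.65 and 5.31 normalized FPKM in 2D (mice 2, 3, 4, 5), and at 0.0487, 0, 0.0749 and 0 in 3D (mice 1, 4, 5, 7), at or under the floor in each. It was at least 50.6-fold lower in 3D (log2 fold change -2.71, limma adjusted p = 2.0e-05). Il18rap was at 2.77, 9.63, 9.28 and 2.10 in 2D and at 0.0907, 0.260, 0.478 and 0.108 in 3D (log2 fold change -2.29, SE 0.44, limma adjusted p = 0.00426). Along the cluster, Il1rl2, Il1rl1 and Il18rap were lower in 3D, Il18r1, which lies between Il1rl1 and Il18rap, was higher, Il1r1 did not pass the test, and Il1r2 was under the floor. For the IL-18 receptor this means that the binding chain and the accessory chain moved in opposite directions in the fit over 8 libraries. The libraries of Il18r1 overlapped, however, and its call was lost in 10 of 18 alternatives.

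**Figure D3:**
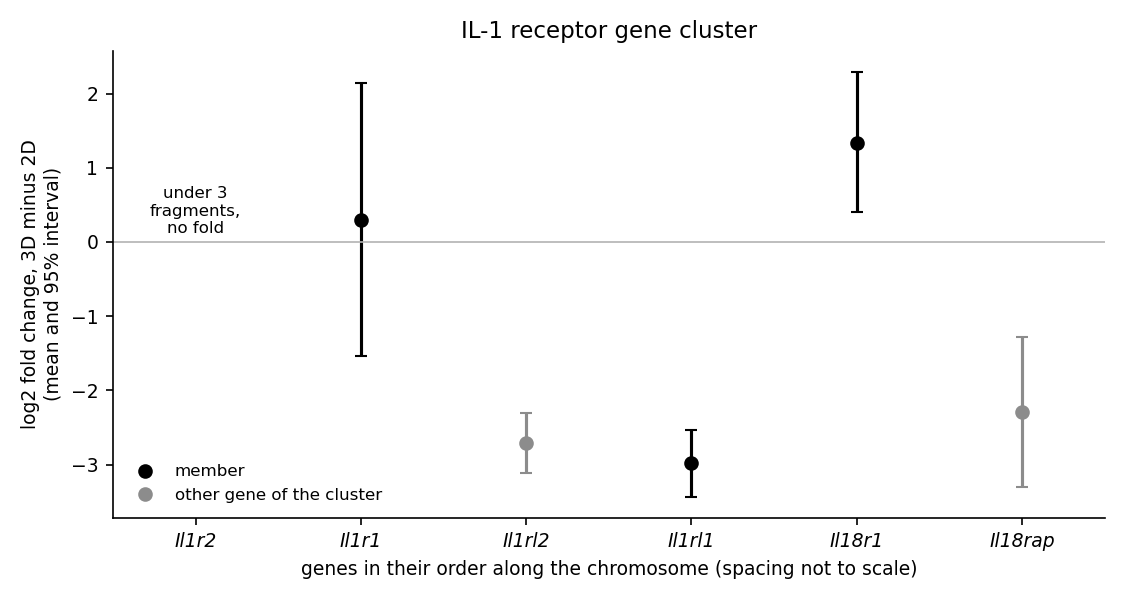
Log2 fold change, 3D minus 2D, with the 95% interval over 8 libraries (vertical axis) of the receptor genes in their order along chromosome 1 (horizontal axis, spacing not to scale), members in black and other genes of the cluster in grey. Il18r1 (1.34) stands above 0 between Il1rl1 (-2.98) and Il18rap (-2.29), and no fold is drawn for Il1r2.

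The genes Il1rl1 and Il18r1, which changed in opposite directions in the fit over 8 libraries, are adjacent and read from the same strand. In GENCODE M21 the end of Il1rl1 and the start of Il18r1 are 136 nt apart, and the RefSeq ends leave 133 nt, chr1:40465419-40465551 (GRCm38.p6, plus strand). This interval is shown, from RefSeq, because it is the whole stretch between both transcripts, and it held no match to the motifs searched.
between Il1rl1 and Il18r1: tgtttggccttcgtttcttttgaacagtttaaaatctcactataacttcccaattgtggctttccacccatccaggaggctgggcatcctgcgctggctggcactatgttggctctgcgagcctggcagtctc

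RefSeq gives Il1rl1 separate start sites, and the 250 nt before each of a pair of them are shown because Il1rl1 is the member with the largest absolute log2 fold change in that fit. They lie at chr1:40429320-40429569 and chr1:40439379-40439628 (GRCm38.p6, plus strand, 5′ to 3′). Capitals mark matches on either strand to the GATA motif, spelled AGATAA or TGATAA.
Il1rl1 distal start: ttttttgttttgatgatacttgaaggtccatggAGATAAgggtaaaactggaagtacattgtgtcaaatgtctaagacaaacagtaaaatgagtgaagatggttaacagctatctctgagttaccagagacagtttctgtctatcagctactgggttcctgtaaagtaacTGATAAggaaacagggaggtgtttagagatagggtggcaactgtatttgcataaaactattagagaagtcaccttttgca
Il1rl1 proximal start: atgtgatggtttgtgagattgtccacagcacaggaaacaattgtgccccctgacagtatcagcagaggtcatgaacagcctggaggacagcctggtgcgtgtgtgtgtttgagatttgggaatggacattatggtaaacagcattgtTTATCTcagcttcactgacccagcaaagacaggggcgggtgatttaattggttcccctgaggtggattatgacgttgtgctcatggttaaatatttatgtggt
The distal window held 2 matches, which began 217 and 80 nt before the start, and the proximal window held 1, which began 103 nt before it. A match to these letters was present in 16.6% of 32851 promoter windows of the same length. Il18rap had 1 match, and the windows of Il1rl2, Il1r1 and Il18r1 had 0. Il1r2, under the floor in both cultures, also had 1 match. Of the 3 genes lower in 3D, Il1rl1 and Il18rap held a match and Il1rl2 did not. Il1rl1, Il1r1 and Il18r1 have more than 1 window each, while the share of 16.6% is per window. Searched in the same way, the AP-1 motif TGANTCA was present in 6.75% of windows and in none of those of Il1rl2, Il1rl1, Il18r1 and Il18rap, and matches to the NF-kappaB consensus were present in 7.25% of windows and in none of these either. In the same cluster, a window of Il1r1 held 1 match to the NF-kappaB consensus. A match is a description of the letters in the window and not of a bound factor.

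By Pearson's correlation of log2(normalized FPKM + 1) over the 8 libraries, among the 12577 genes whose mean was 1 FPKM or more, the genes most like Il1rl1 were Pla2r1 (r = 0.9982), Irf5 (0.9974), Fgf2 (0.9973), Mospd1 (0.9968) and Il1rl2 (0.9967). Fgf2, a fibroblast growth factor, had a mean of 28.7 normalized FPKM in 2D and 0.0335 in 3D. The points share the culture difference, and the correlation is a description of 8 libraries.

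Of the other genes of the IL-1 pathway, 34 were listed and 32 tested, and 14 of these were called, 6 higher and 8 lower in 3D. They had a median log2 fold change of 0.02, and of 0.07 when 3 genes stood at their bound and 3 whose group means lay under the floor in both cultures were left out. The share of genes called was near that of all genes, 41.5%. The ligands of the IL-36 branch were low. Il36b and Il1f10 were at 0 in every library, Il36rn was under the floor, and Il36a was at 0 throughout 2D and at 0.256, 0.0833, 2.77 and 1.62 normalized FPKM in 3D (mice 1, 4, 5, 7). Il36a did not pass the test (limma adjusted p = 0.0858), nor did Il36g (limma adjusted p = 0.0939), although its libraries did not overlap.

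Among the other receptors and binding proteins of the pathway, the negative regulators Sigirr and Il18bp were higher in 3D. This did not extend to the members that oppose IL-1. The antagonist Il1rn did not pass the test (limma adjusted p = 0.238), and the decoy receptor Il1r2 was at or under the floor in all libraries. Sigirr, a receptor that dampens IL-1 and IL-18 signals, ranged from 0 to 0.104 normalized FPKM in 2D, under the floor in each library, and at 6.76, 13.4, 13 and 17.2 in 3D (mice 1, 4, 5, 7). This is at least 112-fold higher (log2 fold change 3.62, limma adjusted p = 3.6e-05). Il18bp, which encodes the soluble protein that binds IL-18, was at 1.06, 1.83, 1.20 and 1.54 in 2D and at 3.64, 9.06, 8.69 and 15.2 in 3D (log2 fold change 1.95, SE 0.36, limma adjusted p = 0.00367). With Il1rl2 and Il18rap, which were lower, all 4 genes of this role changed, and their libraries did not overlap, beside 41.5% called and 42.5% without overlap over all genes.

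The inflammasome is the complex in which caspase-1 is activated to cleave IL-1 beta and IL-18. Its sensors Nlrp3, Nlrc4 and Aim2 were low throughout, at most 0.217 normalized FPKM in any library. Pycard, the adaptor, was higher in 3D (between 0.860 and 1.42 in 2D and between 3.60 and 7.40 in 3D, log2 fold change 1.60, limma adjusted p = 0.00127). Casp1 was lower, with 0.489, 1.29, 1.91 and 0.768 in 2D and 0.261, 0.0432, 0.0988 and 0 in 3D (log2 fold change -0.90, limma adjusted p = 0.00909). Transcripts of Il18 and of Casp1 were therefore both lower in 3D, and the proteins were not measured. Casp4, a caspase that senses lipopolysaccharide, was higher (log2 fold change 2.03, limma adjusted p = 0.00261), and Gsdmd, which encodes the pore through which IL-1 and IL-18 leave the cell, was lower (between 10.3 and 20.6 in 2D and between 0.629 and 1.39 in 3D, log2 fold change -2.95, limma adjusted p = 7.8e-05).

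Of 18 genes in the chain from receptor to NF-kappaB, 2 were higher and 4 lower in 3D, and 12 did not pass the test, beside 41.5% of all genes called. Their median absolute log2 fold change was 0.30, against 0.38 over all genes. These medians are not at like levels, since 17 of the 18 had a mean of at least 1 FPKM, against 12577 of all 18862 genes. The scale understates the change of low genes. Myd88 ranged from 11.2 to 17.0 normalized FPKM in 2D and from 7.34 to 11.3 in 3D (log2 fold change -0.54, SE 0.18, limma adjusted p = 0.0457), and the groups overlapped. Peli1, a ubiquitin ligase of this chain, was higher (0.74, limma adjusted p = 0.0113), and Ube2n, a ubiquitin-conjugating enzyme, was lower (-0.66, limma adjusted p = 0.00071), as was the kinase Chuk (-0.29, limma adjusted p = 0.0366). Each of these genes stayed above 7 normalized FPKM in all libraries.

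**Figure D4:**
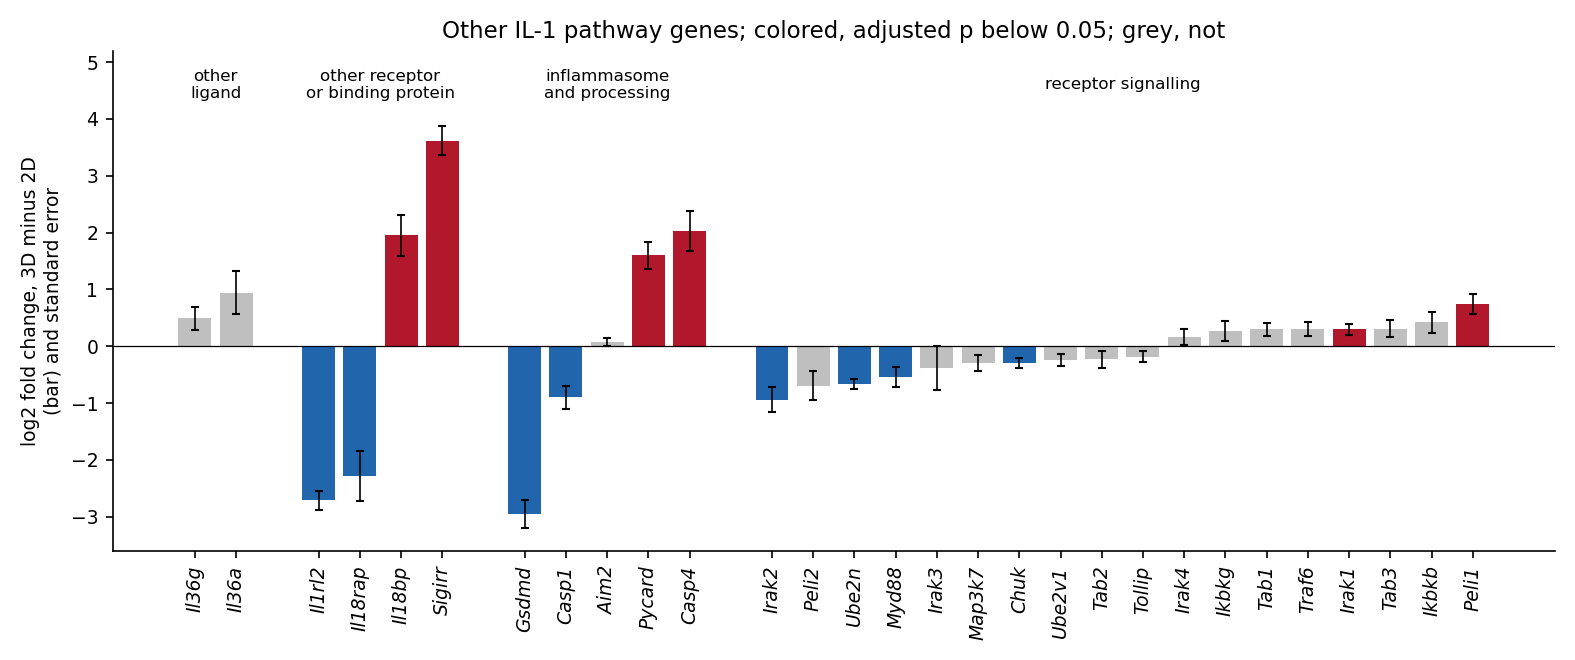
Log2 fold change, 3D minus 2D (bars), with its SE (lines), of the 29 pathway genes for which a fold is given, by role along the horizontal axis and coloured where adjusted p is below 0.05 (red higher, blue lower). The receptors, binding proteins and processing genes reach from -2.95 (Gsdmd) to 3.62 (Sigirr), and the signalling genes lie between -0.94 and 0.74. For Il36a, Il1rl2 and Sigirr, at or under the floor throughout a culture, the bar is the fitted value.

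Of 14 genes known to respond to IL-1, 9 were called, 5 higher (Lcn2, Cxcl5, Csf3, Cxcl2 and Nfkbia) and 4 lower in 3D (Ccl2, Ptgs2, Il6 and Tnfaip3), of which Cxcl2, Nfkbia, Ptgs2, Il6 and Tnfaip3 were named after their values were seen. Of all genes tested, 41.5% were called, 21.2% higher and 20.3% lower. They had a median log2 fold change of 0.74, and of 0.95 when 2 genes stood at their bound. Csf3, the granulocyte growth factor, ranged from 0.0806 to 0.490 normalized FPKM in 2D and from 47.7 to 88.6 in 3D (log2 fold change 5.70, limma adjusted p = 9.0e-07). The monocyte chemokine Ccl2 was at 34.1, 172, 145 and 29.1 in 2D (mice 2, 3, 4, 5) and between 0.108 and 2.48 in 3D (log2 fold change -5.41, limma adjusted p = 0.00056). Il6 was between 3.27 and 5.24 in 2D and was listed at 0 in each 3D library. Lcn2 ranged from 0 to 0.901 in 2D and from 4490 to 8250 in 3D (log2 fold change 11.99, limma adjusted p = 1.8e-07). Cxcl5 was at most 1.15 in 2D and between 380 and 988 in 3D (log2 fold change 8.87, limma adjusted p = 1.7e-06). Both changes were larger than any of the 4 decreases. Response genes of the same list thus moved in both directions, the neutrophil chemokines Cxcl5 and Cxcl2 up and Ccl2 and Il6 down. Cxcl1, also a neutrophil chemokine and named after its values were seen, did not pass the test (log2 fold change 2.92, limma adjusted p = 0.0693). Its 3D library of mouse 7, at 0.905, lay within the 2D range of 0.827 to 4.81. Other signals also act on these genes.

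Several members were high in the 2D libraries with mesothelial transcripts. Il18, Il1r1 and Il1rap were higher in the 2D libraries of mice 3 and 4 than in those of mice 2 and 5, as was Il33 (9.69 and 3.07 against 0.0408 and 0.595). Without the 2D libraries of mice 3 and 4, a choice made after seeing the data, the log2 fold change of Il18 was -1.27 (limma adjusted p = 0.00662) and that of Il1r1 was 1.72 (limma adjusted p = 0.0243). That of Il1rap was 0.07 (limma adjusted p = 0.910), that of Il33 was 2.96 (limma adjusted p = 0.0740), and that of Il1rn was 0.84 (limma adjusted p = 0.0282). Il18r1, which in 2D was above 0 in mice 3 and 4 alone, lost its call in this fit (1.52, limma adjusted p = 0.0961). Il18 remained lower in 3D by a smaller difference. Il1r1 and Il1rn were then called higher, and Il18r1 was no longer called. The 2D values left for Il1rn were at or under its floor. The part of mesothelial cells in these values was not tested.

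**Figure D5:**
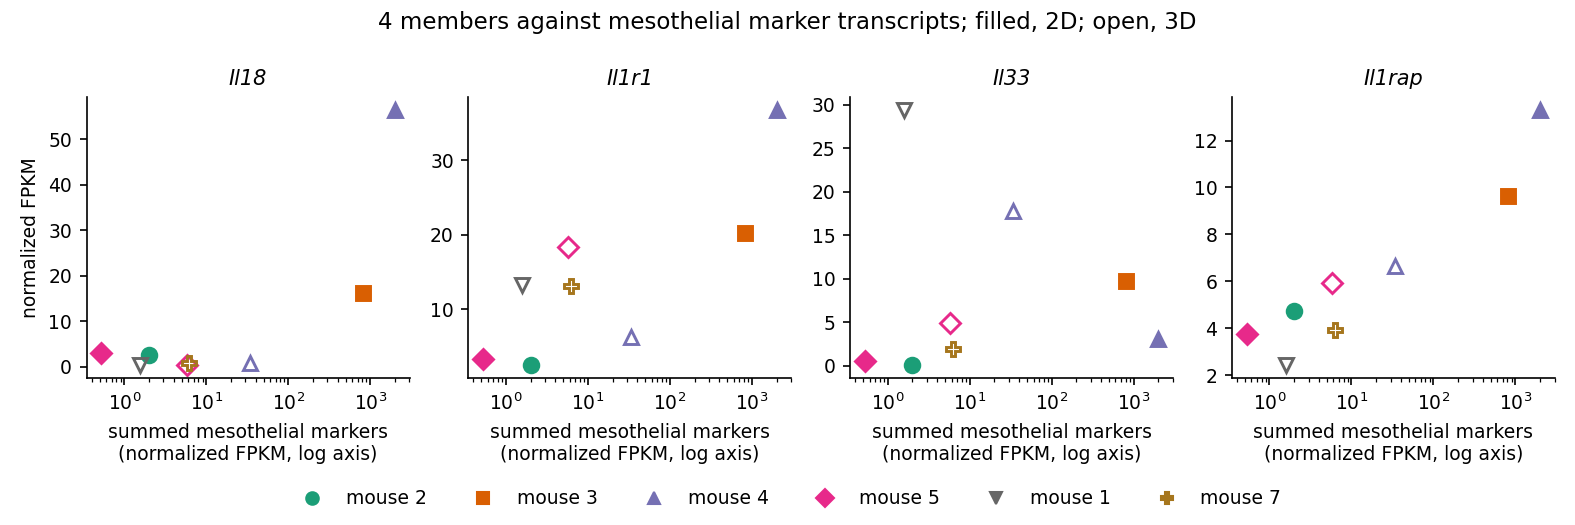
Normalized FPKM of Il18, Il1r1, Il33 and Il1rap (vertical axes, linear) against the sum of 5 mesothelial markers (horizontal axis, logarithmic) in the 2D (filled) and 3D (open) libraries, with a symbol per mouse. The 2D libraries of mice 3 and 4, at sums of 816 and 2000, hold the highest values of Il18, Il1r1 and Il1rap, but not of Il33, whose highest value is 29.4 in the 3D library of mouse 1.

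Markers of immune cells that express IL-1 family genes were also summed. The sum of 7 macrophage markers ranged from 5.41 to 25.3 normalized FPKM in 2D and from 124 to 170 in 3D. Most of it in 3D was Cd14 and Cd68, and Csf1r was at 0.264, 5.97, 7.65 and 3.40 in 3D (mice 1, 4, 5, 7) against 0.486 to 1.44 in 2D. Other genes of the list went the other way. Lyz2 was at 18.7, 0.227, 8.04 and 0.552 in 2D (mice 2, 3, 4, 5) and Adgre1 at most 0.476, and both were at 0 in all 3D libraries. Itgam was at most 0.519 in 2D and 0.0317 in 3D. Ptprc, which marks blood cells in general, was at most 0.0779 in any library. The sum of the T, NK and innate lymphoid list was between 0.906 and 1.58 in 2D and between 22.5 and 32.1 in 3D, nearly all of it Gata3 in 3D, which epithelial cells also express, and Cd3e was at 0. Of the mast cell list, Cpa3, Mcpt4 and Fcer1a were at 0 in every library, and the sum was at most 0.0484 in 2D and 0.726 in 3D. Neutrophil markers summed to between 0.0307 and 4.04 in 2D and between 0 and 1.25 in 3D. The highest sums were nearly all S100a8 (up to 4.04 in 2D and 1.14 in 3D), S100a9 was at 0 in every library, and Ly6g was not listed. Endothelial markers summed to between 0.412 and 6.74 in 2D and between 0.0551 and 0.202 in 3D. The high 2D sums were mostly Kdr, at 3.92 and 6.34 in mice 3 and 4 against 0.188 and 0.155 in mice 2 and 5. Pecam1, Cdh5 and Vwf were at most 0.164 in any library, and Tek at most 0.367. Of 10 epididymal markers, Adam7, Lcn5, Lcn9 and Lcn10 were at 0 in every library and the sum, nearly all of it Spink8 in 3D, was between 0.315 and 1.01 in 2D and between 4.63 and 73.6 in 3D. The part of these cells in the changes of the members was not tested.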

How the data were processed

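For 8 ADSC cultures, directional libraries were made after depletion of ribosomal RNA. The authors trimmed the reads, mapped them with TopHat (mm10, per the submitters' processing notes) and computed the deposited FPKM values with Cufflinks, and the annotation is not given in the sources used here. The deposited values are not quantile normalized, and a value of 0 can be a failed estimate. Here 18862 of 24346 genes above 0 in any library were quantile normalized, converted to log2(FPKM + 1) and compared with limma 3.58.1 (R 4.3.3, intensity trend, no covariates). The fit was also tried on simulated data in which few genes changed, with independent noise and no mouse in both groups. That setting differs from these data, where 41.5% of genes were called. Depth and floors used transcript lengths of GENCODE M21 (GRCm38, to which 95.7% of genes matched by symbol). Promoter and intergenic sequences came from RefSeq (GRCm38.p6).

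Members and lists were chosen with earlier results of these data known. Named genes are the members, pathway and response genes that were called without overlap (at most the 4 with the largest change per role), Casp1, Myd88 and the chromosome 1 receptors, and the 5 genes most correlated with the called member of the largest change. The IL-36 genes are listed in the files by older symbols. Mouse numbers pair the libraries of mice 4 and 5, which come from the same animals. Between both libraries of a mouse, deviations from the group means correlated at -0.0526 (mouse 4) and -0.113 (mouse 5) over 12577 genes. The fit was repeated on the deposited values, without the intensity trend, on genes with a mean of 1 FPKM or more, with 0.1 as pseudocount, with the mouse as block or as random effect, on mice 4 and 5 alone, without each library, and without genes under 300 nt. A crossed block and the fit without the 2D libraries of mice 3 and 4 were chosen after seeing the data.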

Additional observations from a re-analysis of the deposited data

Results flagged for a closer look

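Among the 3D libraries, that of mouse 1 was far from the others for Il1a, at 4.21 normalized FPKM against between 0.336 and 0.380. Gaps were judged on the log2 scale by a limit that chance passes in about 1 of 20 groups.

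The mice that gave both cultures moved in opposite directions for 3 members, and these differences were not tested, since each mouse gave 1 library per culture. On the log2 scale, 3D minus 2D, Il1rn was at -0.73 in mouse 4 and 1.35 in mouse 5, Il1r1 at -2.38 and 2.14, and Il1rap at -0.91 and 0.55. In each case the 2D library of mouse 4 held the highest of all 8 normalized values of the gene, for Il1rn not in the deposited values (1.59 against 1.77 in the 3D library of mouse 5), and that library also held the highest sum of mesothelial markers, 2000 normalized FPKM. The part of mesothelial cells in this was not tested.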

How the results depend on the processing

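Il1rl1 kept its direction in 18 alternatives and its call in 16, the exceptions being the blocks below. With the mouse as a replicate block, 0 members, 0 pathway genes and 0 response genes were called in either direction, and 0 of all 18862 genes, so that this fit, which leaves the comparison to mice 4 and 5, calls nothing. A crossed replicate block with mice 4 and 5 exchanged in 3D, tried because the deviations of mouse 5 correlated at -0.113, also called 0 in each list and direction. In mice 4 and 5 alone, without the block, 0 members were higher and 1 lower, 3 pathway genes were higher and 2 lower, and 6 response genes were higher and 2 lower. With the values as deposited 1 member was lower in 3D (Il1rl1, while Il18 lost its call). Without the 2D libraries of mice 3 and 4, 2 members were higher (Il1r1 and Il1rn, while Il18r1 lost its call). Leaving out each library in turn gave between 0 and 2 members higher and between 1 and 2 lower in 3D.

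The log2 fold change of Il1r1 turned to -0.12 under the block, the crossed block, mice 4 and 5 alone or without the 2D library of mouse 5, and to -0.23 without that of mouse 2; leaving out each library gave values from -0.23 to 0.91. That of Il1rap turned to 0.07 without the 2D libraries of mice 3 and 4. The cause was not tested. The adjusted p of Il33 stayed between 0.0740 and 0.357. Depth limits Il1b and Il1r2, which lay at or under 3 fragments in all libraries. With 4 libraries a group, and mice 4 and 5 in both groups, p-values measure the spread between these libraries. The filter at a mean of 1 FPKM covered 6 members.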
